A study of Homo sapiens with 12 samples.

Results

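The human mitochondrial ribosomal protein genes were followed through the study as a family of 76 genes. They are the protein-coding genes of the deposited count table whose symbol, looked up from the Ensembl identifier, starts with MRPL (48 genes, named for the large subunit) or MRPS (28 genes, named for the small subunit) and goes on with a digit. The table held 48162 gene identifiers, 19211 of them protein-coding, and a further 79 identifiers with such a symbol were pseudogenes, antisense genes or other non-coding entries and were left out. The rule uses names alone, and the family was taken up with earlier results of these data known.

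The cells were T84, an established line from a human colon carcinoma whose cells form an epithelial sheet. At confluence their medium was exchanged for Hanks buffered saline, a balanced salt solution, of pH 7.4 or of pH 6.0, and total RNA was taken after 3 h or 6 h and sequenced. This gave 4 groups of 3 libraries: pH 7.4 for 3 h, pH 6.0 for 3 h, pH 7.4 for 6 h and pH 6.0 for 6 h. All 4 groups shared the change from medium to saline, so the pH 7.4 libraries are controls for acidity and not for the saline, and no library of cells in medium was analysed here.

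The mitochondrial ribosome, or mitoribosome, translates the few mRNAs encoded by mitochondrial DNA, all of which specify subunits of the respiratory chain and the ATP synthase. Its RNA comes from mitochondrial DNA, but every one of its proteins is encoded in the nucleus, made in the cytosol and imported, so that the composition of the particle rests on nuclear genes and mitochondrial rRNA together. Many of these proteins have counterparts in bacterial ribosomes and others exist only in mitochondria. Some symbols mislead: MRPS30 and MRPS18A belong to the large subunit, and MRPS36 is now known as a subunit of the 2-oxoglutarate dehydrogenase complex.

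Promoters of genes for mitochondrial proteins are known to be bound by ETS factors such as the GABPA and GABPB1 pair, by NRF1 and by YY1, and MYC binds E-boxes. The short cores of these sites were therefore searched, on both strands, in a window from 250 bases before to 50 bases after the RefSeq gene start (build GRCh38.p14), which was found for 67 of the 76 genes. The ETS core CCGGAAG was in 28 of the 67 windows (41.8%), against 18.9% of the 10905 windows of tested genes and 10.7% of all 27305 windows in the table. For the YY1 core GATGGC the count was 27 windows (40.3%), against 14.6% and 13.02%. The NRF1 core TGCGCA was in 13 windows (19.4%, against 12.9% and 8.42%) and the E-box CACGTG in 5 (7.46%, against 9.98% and 7.43%). At least 1 of the 4 motifs was in 51 of the 67 windows (76.1%), against 44.6% of the windows of tested genes. Matches to different motifs may share bases and were counted separately, and a match describes the letters only.

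The 120 bases upstream of the gene start are printed for 8 genes, all of which but MRPL52 recur below. They run 5′ to 3′ in the direction of the gene, with motif matches on either strand in capitals. MRPL40 (chr22:19432425-19432544, plus strand), MRPS34 (chr16:1773135-1773254, minus), MRPL51 (chr12:6493263-6493382, minus) and MRPL20 (chr1:1407294-1407413, minus) show the ETS core, which reads CTTCCGG on the other strand. MRPL17 (chr11:6683341-6683460, minus) shows the NRF1 core and MRPL52 (chr14:22829767-22829886, plus) the YY1 core. MRPL55 (chr1:228109300-228109419, minus) and MRPS35 (chr12:27710712-27710831, plus) have none of the 4 motifs in this stretch. In the wider window searched above MRPL55 has none either, but MRPS35 has an NRF1 core that starts at base -121, just outside the stretch. Also outside it are an NRF1 core in MRPL40 (-159) and YY1 cores in MRPL17 (-234), MRPL20 (18) and MRPL51 (24). An ETS core in MRPL52 (-5) runs across its edge.
MRPL40: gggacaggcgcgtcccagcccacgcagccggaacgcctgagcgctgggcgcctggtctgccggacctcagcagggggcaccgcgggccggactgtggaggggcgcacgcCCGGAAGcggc
MRPS34: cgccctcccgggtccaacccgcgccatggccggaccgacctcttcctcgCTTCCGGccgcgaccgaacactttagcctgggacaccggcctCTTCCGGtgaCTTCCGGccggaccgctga
MRPL51: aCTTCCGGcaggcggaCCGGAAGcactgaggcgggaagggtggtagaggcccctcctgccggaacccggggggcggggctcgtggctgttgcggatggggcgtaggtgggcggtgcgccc
MRPL20: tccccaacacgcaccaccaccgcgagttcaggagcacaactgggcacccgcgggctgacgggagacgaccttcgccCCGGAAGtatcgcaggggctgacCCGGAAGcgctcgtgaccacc
MRPL17: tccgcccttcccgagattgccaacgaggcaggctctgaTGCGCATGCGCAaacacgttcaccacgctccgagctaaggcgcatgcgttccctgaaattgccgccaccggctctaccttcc
MRPL52: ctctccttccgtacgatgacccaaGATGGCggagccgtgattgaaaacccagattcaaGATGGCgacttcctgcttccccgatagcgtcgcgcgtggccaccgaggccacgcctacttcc
MRPL55: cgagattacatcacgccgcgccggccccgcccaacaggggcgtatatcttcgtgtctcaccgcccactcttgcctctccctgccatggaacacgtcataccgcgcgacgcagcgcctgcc
MRPS35: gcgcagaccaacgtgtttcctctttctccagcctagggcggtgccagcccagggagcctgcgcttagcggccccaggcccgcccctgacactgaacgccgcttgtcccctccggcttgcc

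These upstream stretches are alike in letters only in part: MRPS34 has 3 ETS cores, MRPL51 and MRPL20 have 2 each, and MRPL40 has 1. The plots and values below can be set against these motifs. At 6 h the median log2 fold change of pH 6.0 over pH 7.4 was 0.26 for the 27 tested genes with an ETS core and 0.29 for the 38 without. For the NRF1 core it was 0.42 over 13 genes and 0.27 over 52, and for the YY1 core 0.19 over 26 and 0.31 over 39. These differences were not tested.

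Libraries held 13912532 to 24331032 counts, and the coefficient of variation between libraries of a group, common to all genes, was 9.29%. edgeR's expression filter left 15630 genes for testing, 74 of the family among them. All 10 intestinal epithelial markers looked up were abundant, the lowest value in any library being 95.6 CPM (counts scaled to the library's total) for the transcription factor CDX2. Markers of other cells were near 0, with a summed level of 1.05 to 2.79 CPM for 7 fibroblast markers in 11 libraries and 24.2 CPM in replicate 2 of pH 7.4 for 6 h. The 6 leukocyte markers summed to 5.53 to 10.4 CPM, nearly all of it LYZ, and 3 endothelial markers to at most 1.28 CPM. Their part in the results below was not tested, and no count below moved by more than 1.5 times without that replicate 2.

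The genes differed widely in level. Compared per length, as RPKM (reads scaled to gene length and library total) averaged over the 12 libraries, the median of the 76 genes was 14.4, against 5.64 for all tested genes. The highest was MRPS35, a small subunit protein found only in mitochondria, at 98.2 ± 14.2 RPKM (SD, n = 12). It was followed by MRPL23, which lies near the exit of the tunnel through which the new chain leaves, at 77.5 ± 15.9 RPKM (SD, n = 12). MRPS34, another mitochondria-specific small subunit protein, stood at 77.1 ± 16.6 RPKM (SD, n = 12) and MRPL3, a large subunit core protein with a bacterial counterpart, at 74.4 ± 7.91 RPKM (SD, n = 12). MRPL37, a mitochondria-specific large subunit protein, came next at 65.2 ± 7.17 RPKM (SD, n = 12). The spread over libraries of these top genes overlapped, so their order is only that of the means. In all, 7 genes had a mean above 50 RPKM, 47 lay between 10 and 50, and 22 lay below 10.

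At the bottom of the scale, counts were uncertain for a reason of annotation. In a GENCODE 29 annotation, 13 of the genes have exons that overlap another protein-coding gene on the same strand, and their median was 2.06 RPKM, against 15.3 for the other 63. MRPL30 and MRPS24, which both belong to this class, had at most 2 and 8 counts in a library and did not pass the filter. MRPL38 (0.352 ± 0.160 RPKM (SD, n = 12)), MRPL46 (0.525 ± 0.235 RPKM (SD, n = 12)) and MRPL12 (1.91 ± 0.510 RPKM (SD, n = 12)) were the lowest of the tested genes and belong to it too. MRPL38 and MRPL46 are parts of the central protuberance of the large subunit, and MRPL12 is the protein of the flexible stalk that recruits translation factors. Reads shared between overlapping genes may have been dropped or split by the authors' counting, for which no rules were found in the labels, so low values for these genes do not show low expression. Pseudogenes are named after 32 of the 76 genes, some of the overlapping ones included, and can take or give reads in the same way.

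**Figure D1:**
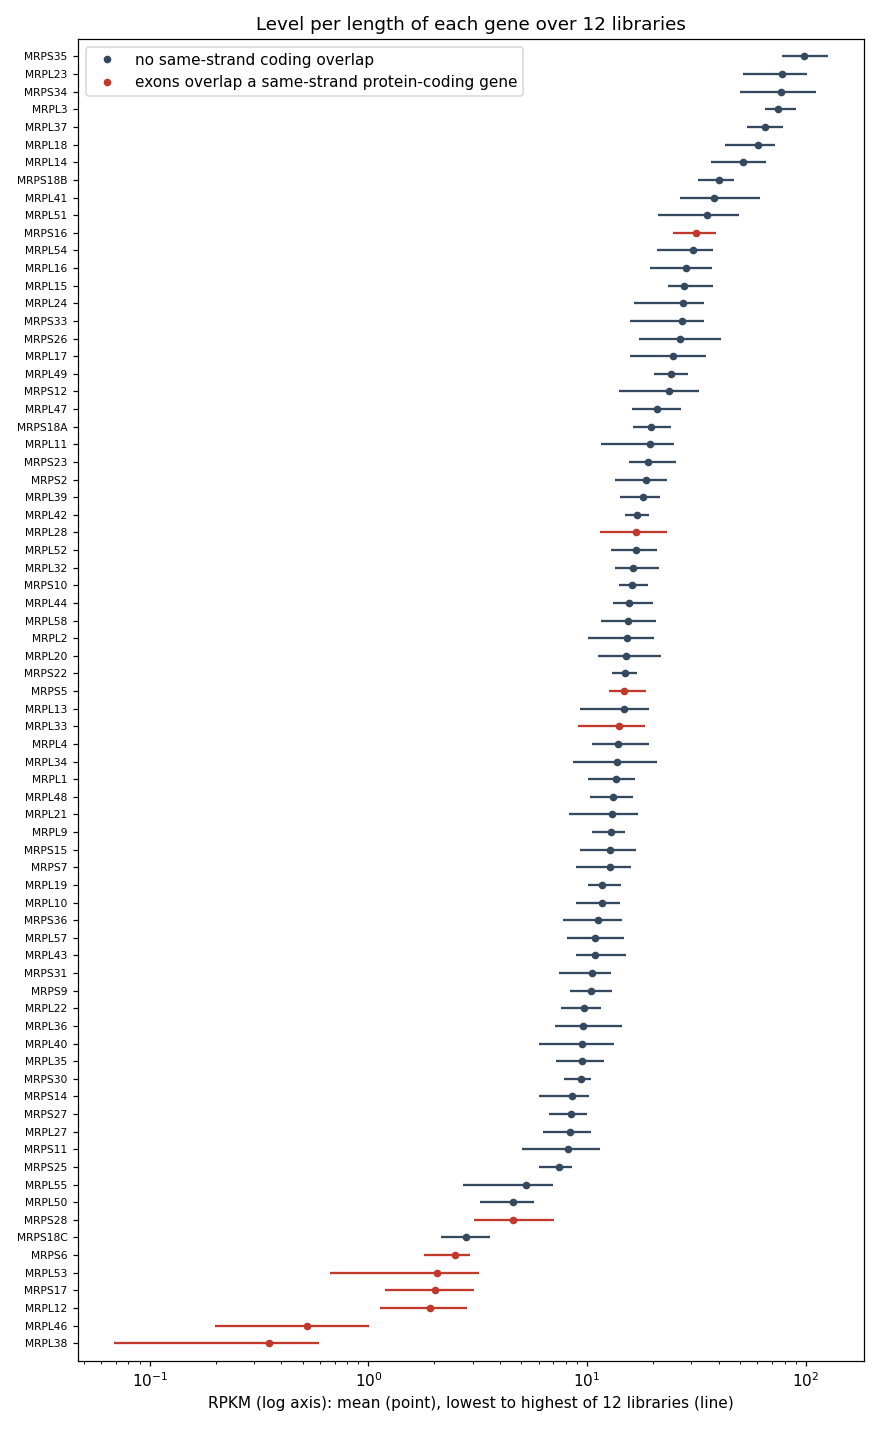
Mean level per length of each gene over the 12 libraries (point) with the range from the lowest to the highest library (line), in RPKM on a log axis. MRPS35 is highest at 98.2 and the genes overlapping a coding gene on the same strand (red) fill most of the lower end. MRPL30 and MRPS24, each listed at 0 in at least 1 library, are not drawn.

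Together the 76 genes made up 0.190% to 0.302% of a library's counts. At pH 7.4 the share was 0.302%, 0.257% and 0.257% in the 3 libraries at 3 h and 0.220%, 0.223% and 0.190% at 6 h. At pH 6.0 it was 0.264%, 0.222% and 0.233% at 3 h and 0.259%, 0.262% and 0.245% at 6 h. The 3 libraries of pH 7.4 at 6 h thus lay below all of those at 3 h of the same pH and below all of those at pH 6.0 for 6 h. The 13 mRNAs that the mitoribosome translates took 7.14% to 10.6% of the counts, with pH 6.0 at 6 h lowest at 7.14% to 7.40%. In bulk RNA, fewer cells of a kind and less RNA per cell cannot be told apart, and a share falls when other transcripts rise.

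**Figure D2:**
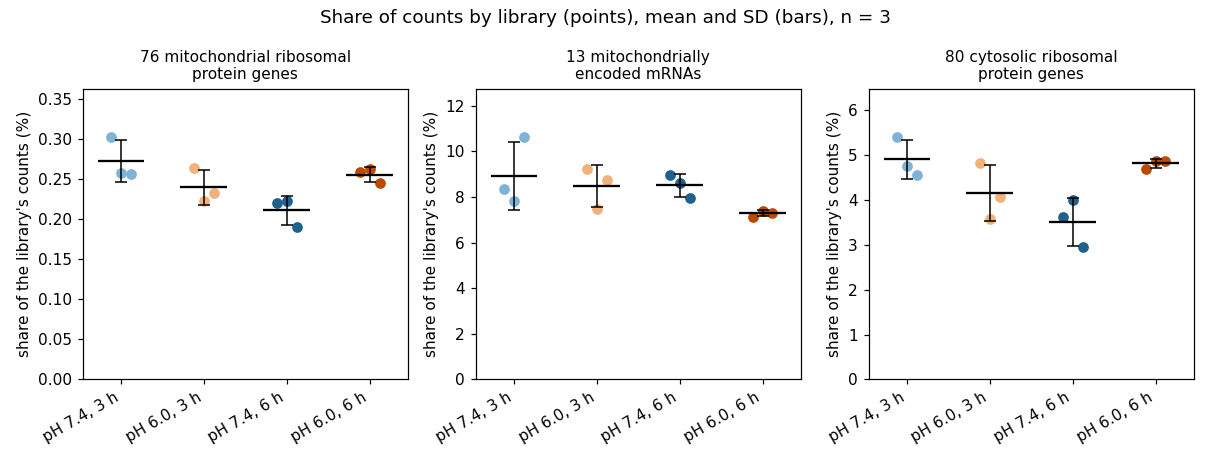
Share of each library's counts taken by the 76 mitochondrial ribosomal protein genes, the 13 mitochondrially encoded mRNAs and 80 cytosolic ribosomal protein genes (percent; points are libraries, bars the mean and SD of 3). The mitochondrial ribosomal share is lowest at pH 7.4 for 6 h (0.190% to 0.223%), as is the mean cytosolic ribosomal share, whereas the mitochondrially encoded share is lowest at pH 6.0 for 6 h.

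Gene by gene the same order of groups recurred. Of the 74 tested genes, 49 (66.2%) had their lowest group mean at pH 7.4 for 6 h, against 32.1% of all tested genes. The highest group mean was at pH 7.4 for 3 h in 42 genes (56.8%, against 22.6% of all tested genes) and at pH 6.0 for 6 h in 25 (33.8%, against 27.9%). In the plot of single libraries, replicate 3 of pH 7.4 for 6 h was the lowest of the 12 for 41 genes and replicate 1 of pH 7.4 for 3 h the highest for 33.

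**Figure D3:**
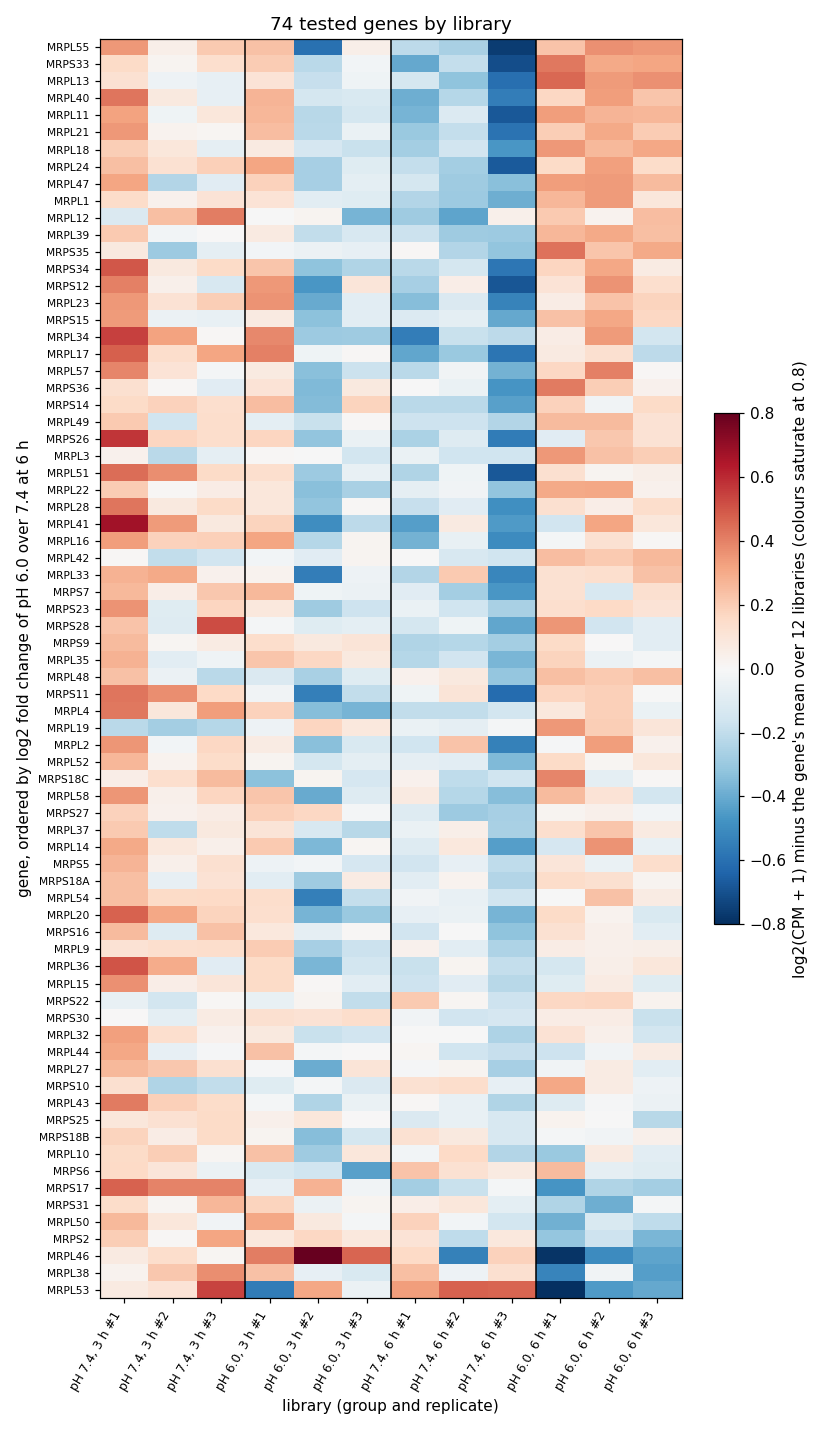
Deviation of each of the 74 tested genes from its own mean over 12 libraries, in log2(CPM + 1), with genes ordered by the pH difference at 6 h and libraries by group. Most rows are red at pH 7.4 for 3 h and pH 6.0 for 6 h and blue at pH 7.4 for 6 h, and MRPL53, MRPL38 and MRPL46, at the low end of the order, are bluer at pH 6.0 for 6 h than at pH 7.4 for 6 h.

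A trend with gene length ran through the libraries and moved with these values. Gene length here is the length implied by the deposited counts and RPKM values. Across all tested genes, the rank correlation between length and a library's deviation from the gene means was -0.25, -0.08 and -0.15 at pH 7.4 for 3 h and 0.27, 0.21 and 0.37 at pH 7.4 for 6 h. At pH 6.0 it was -0.22, 0.21 and 0.02 for 3 h and -0.13, -0.19 and -0.17 for 6 h. The median deviation of the 74 genes ran opposite to it in every group: 0.26, 0.05 and 0.11, then -0.11, -0.09 and -0.30 on the log2 scale at pH 7.4, and 0.11, -0.21 and -0.08, then 0.13, 0.13 and 0.05 at pH 6.0. The mitochondrial ribosomal genes are short, from 626 to 5561 bases with a median of 1712 over the 76, against 2994 for all tested genes, and 60 of the 74 fall in the shortest 4 deciles of length. Each comparison is therefore given also with a correction for length, and beside other short genes. Shares of all tested genes, and of other short genes, are those of the uncorrected fit with all libraries. The correction was fitted over all tested genes, non-coding ones included. In the shortest decile 289 of 1563 tested genes were protein-coding. There the median over time at pH 7.4 was -0.05 for all tested genes, -0.40 for protein-coding ones and -0.41 for 8 family genes. For pH at 6 h these medians were 0.26, 0.44 and 0.30. How well the correction holds for short protein-coding genes was not tested.

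The comparison of pH at 6 h asks how the family stood after the longer stay in acid saline. Mitochondrial ribosomal protein transcripts were mostly higher at pH 6.0 than at pH 7.4. By edgeR's quasi-likelihood test with Benjamini-Hochberg adjustment over all 15630 genes (adjusted p under 0.05 counts as changed throughout), 33 of the 74 tested genes rose and 3 fell. Among all tested genes 21.9% rose and 25.1% fell, 47% in all. The median log2 fold change was 0.29 for the 74 genes and 0.00 for all genes, and 64 of the 74 values were positive. In 41 genes the 3 libraries at pH 6.0 lay above the 3 at pH 7.4 (26.9% of all tested genes), and in 1 gene below them (29.7%). The labels do not say whether the 3 libraries of a group are separate cultures, so the p-values rest on a spread that may be technical.

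Genes with either symbol rose. Of 47 tested genes with an MRPL symbol, 23 rose and 2 fell (median 0.34), and of 27 with an MRPS symbol, 10 rose and 1 fell (median 0.25). Proteins with a bacterial counterpart (19 of 44 rose, 1 fell) and those without (13 of 29 rose, 2 fell) both took part. The difference between them was not tested. MRPS36 is in the MRPS count but was placed in neither of these classes. MRPL55, a mitochondria-specific large subunit protein, had 6.16, 5.90 and 3.89 CPM at pH 7.4 and 8.68, 9.65 and 9.54 CPM at pH 6.0. It rose by 0.80 ± 0.20 (SE; edgeR adjusted p = 0.00226) on the log2 scale, the largest rise of the family, with no overlap between the groups. MRPS33, a small mitochondria-specific protein of the small subunit, had 16.8, 19.7 and 13.5 CPM at pH 7.4 and 30.7, 28.1 and 28.4 CPM at pH 6.0. Its log2 fold change was 0.80 ± 0.13 (SE; edgeR adjusted p = 2.1e-05), and each library at pH 6.0 exceeded each at pH 7.4 by more than the spread within either group.

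MRPL13, the counterpart of bacterial L13, had 30.95, 27.1 and 22.1 CPM at pH 7.4 and 47.3, 43.6 and 44.2 CPM at pH 6.0, which gave a log2 fold change of 0.75 ± 0.11 (SE; edgeR adjusted p = 9.25e-06). MRPL40, a central protuberance protein whose gene lies in the 22q11 region deleted in DiGeorge syndrome, had 9.58, 10.8 and 8.45 CPM at pH 7.4 and 14.6, 16.5 and 15.2 CPM at pH 6.0. The libraries of the 2 pH values were again fully apart, with a log2 fold change of 0.68 ± 0.15 (SE; edgeR adjusted p = 0.000847). MRPL11, at the base of the factor-binding stalk, rose by 0.67 ± 0.14 (SE; edgeR adjusted p = 0.000852), and MRPL21, counterpart of bacterial L21, by 0.61 ± 0.13 (SE; edgeR adjusted p = 0.000501). Each of these 6 genes passed the test in every alternative tried, each of the 12 libraries left out in turn included.

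The most abundant members followed. MRPS35 had 185, 156 and 147 CPM at pH 7.4 and 249, 214 and 227 CPM at pH 6.0, a log2 fold change of 0.50 ± 0.10 (SE; edgeR adjusted p = 0.000181). MRPL3 had 121, 113 and 113 CPM at pH 7.4 and 161, 149 and 145 CPM at pH 6.0, a log2 fold change of 0.39 ± 0.08 (SE; edgeR adjusted p = 0.000444). The rise of MRPS35 lay above the family's upper quartile of 0.44, and that of MRPL3 lay between this quartile and the family median of 0.29. In both genes the 2 groups of libraries did not overlap. MRPS34 (0.49 ± 0.15, edgeR adjusted p = 0.0171) and MRPL23 (0.48 ± 0.16, edgeR adjusted p = 0.0199) rose too, but neither passed after the correction for length (adjusted p = 0.117 and 0.145). MRPL37 had 98.6, 106 and 85.4 CPM at pH 7.4 and 113, 119.8 and 108 CPM at pH 6.0 and did not pass (0.23 ± 0.11, edgeR adjusted p = 0.0779), though its groups did not overlap.

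Among genes given whatever their result, MRPS7, a small subunit head protein, rose by 0.32 ± 0.12 (SE; edgeR adjusted p = 0.0353), with overlapping libraries and with the call lost after length correction (adjusted p = 0.135). MRPS12, the counterpart of the bacterial decoding-site protein S12, gave 0.49 ± 0.23 (SE; edgeR adjusted p = 0.0965) and did not pass. Its exons overlap those of SARS2, the mitochondrial seryl-tRNA synthetase, on the opposite strand. MRPS30 gave 0.09 ± 0.09 (SE; edgeR adjusted p = 0.422) and MRPL12 0.57 ± 0.29 (SE; edgeR adjusted p = 0.115), neither of which passed. MRPL38 gave -1.17 ± 0.51 (SE; edgeR adjusted p = 0.0664), opposite in sign to most of the family, and did not pass.

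The 3 genes that fell were of low or moderate level. MRPL53, a mitochondria-specific protein near the stalk base, had 3.08, 3.49 and 3.46 CPM at pH 7.4 and 0.814, 1.36 and 1.43 CPM at pH 6.0. Its log2 fold change was -1.46 ± 0.31 (SE; edgeR adjusted p = 0.000506), the largest change of the family in this comparison, and its groups did not overlap. MRPL46 had 3.14, 1.56 and 3.22 CPM at pH 7.4 and 1.15, 1.62 and 1.77 CPM at pH 6.0 and fell by 0.78 ± 0.28 (SE; edgeR adjusted p = 0.0264), with overlap between libraries and with the call lost after length correction (adjusted p = 0.0823). MRPL53 shares exons with CCDC142 and MRPL46 with an unnamed coding gene on the same strand, so these counts are uncertain. MRPS2, the counterpart of bacterial S2, had 32.4, 25.9 and 31.9 CPM at pH 7.4 and 24.1, 26.6 and 23.1 CPM at pH 6.0, a log2 fold change of -0.29 ± 0.11 (SE; edgeR adjusted p = 0.0337). The highest acid library of MRPS2 (26.6 CPM) slightly exceeded the lowest control library (25.9 CPM).

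After correction for length 25 genes rose and 4 fell, with a median of 0.20 against 0.04 for all genes, and after correction for length and GC content together 26 rose and 4 fell. Of the 33 risen genes, 24 kept their call with length corrected. Among the 60 genes in the shortest 4 deciles of length, 27 (45.0%) rose and 2 fell, with a median of 0.32. Of the 3887 tested protein-coding genes in those deciles 35.9% rose and 12.7% fell, with a median of 0.22. Lengths within these deciles were not matched, and 34 of the 60 genes lay in the shortest 2. From the shortest decile on, 2 of 8, 13 of 26, 5 of 14 and 7 of 12 genes rose. Of protein-coding genes in the same deciles 40.8%, 41.9%, 34.3% and 31.3% rose. The count rested in part on replicate 3 of pH 7.4 for 6 h: without it 18 genes rose and 1 fell. Of the 33 risen genes, 18 passed with any single library left out. For this and the other comparisons, counts after a correction or without a library stand without the share of all tested genes in that setting. They cannot be set against the shares of the uncorrected fit.

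**Figure D4:**
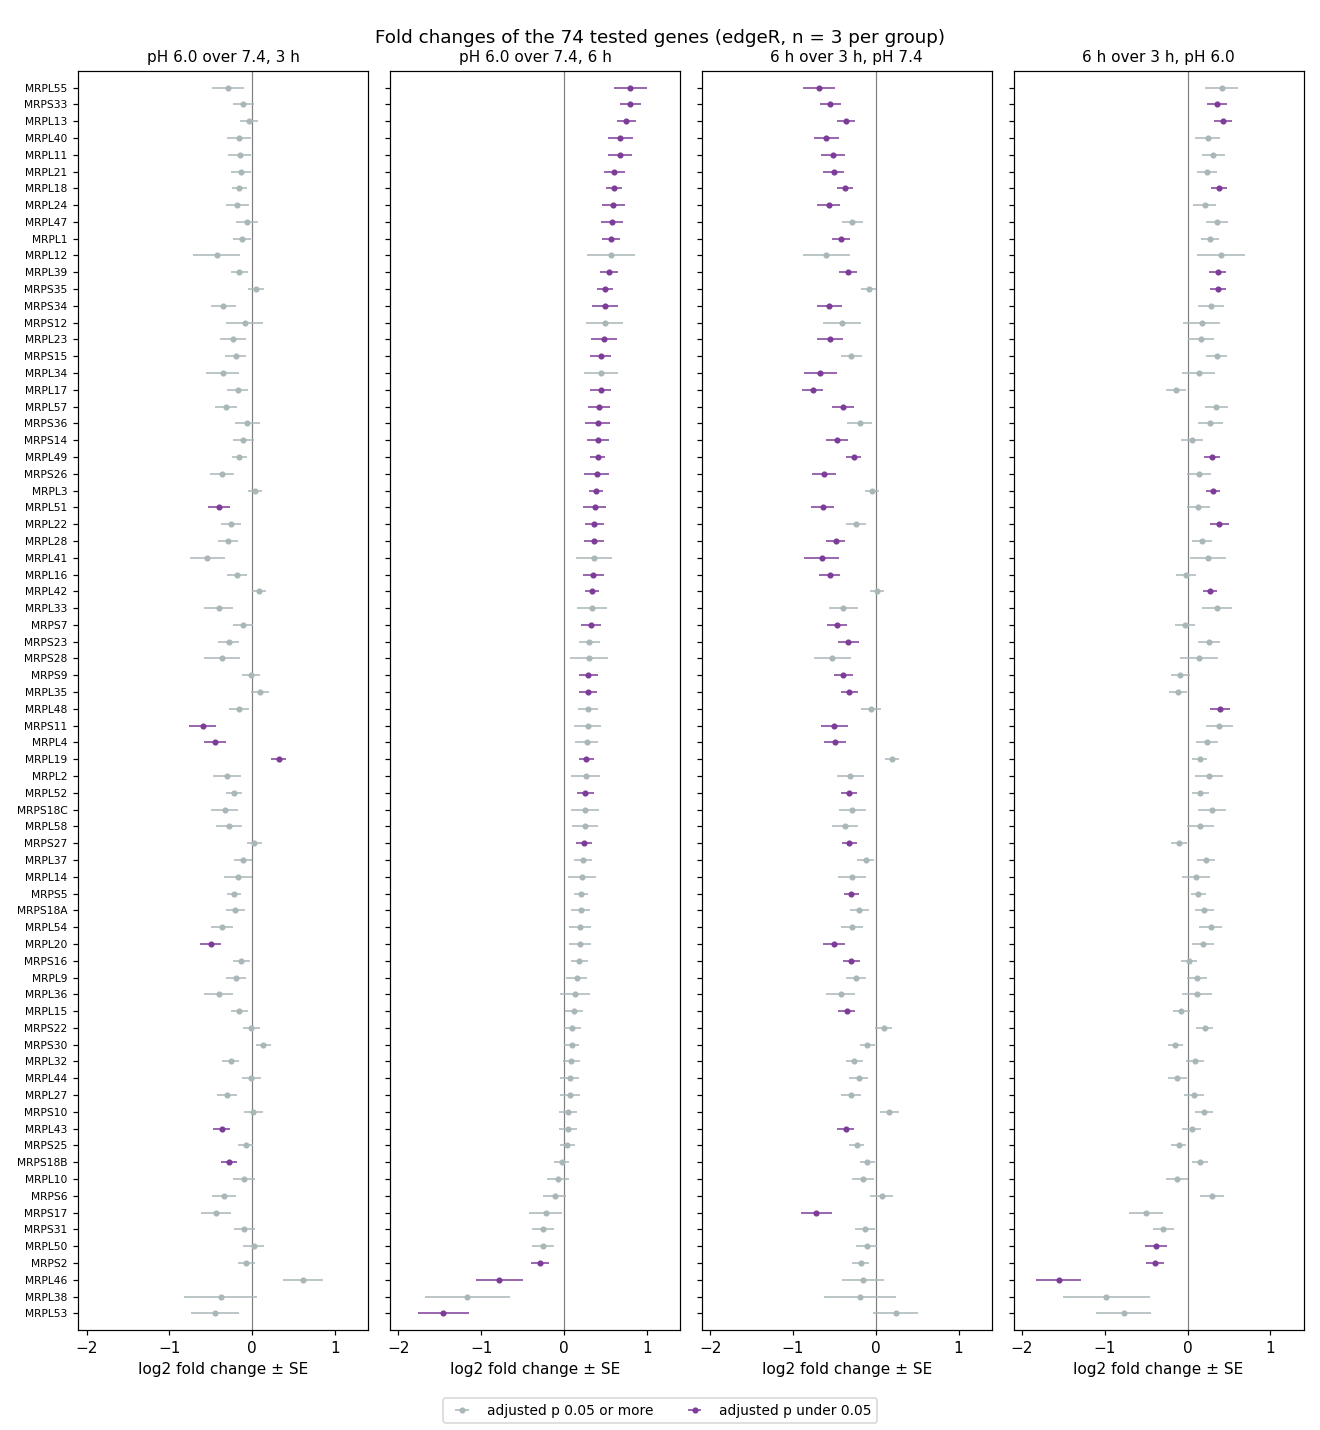
Log2 fold change with its standard error for each tested gene in 4 comparisons, genes in the order of the pH difference at 6 h, coloured by the edgeR test. At 6 h of acid 33 genes lie to the right and passed (largest MRPL55, 0.80), and from 3 h to 6 h at pH 7.4 36 lie to the left and passed (largest MRPL17, -0.76). The comparisons at each time or pH share libraries with one another.

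At 3 h the same comparison of pH gave few changes. Of the 74 genes, 1 rose and 6 fell, while 9.53% of all tested genes rose and 9.26% fell (18.8% in all), so the share that fell (8.11%) was near the background. The values leaned downward, 64 of 74 being negative, with a median log2 fold change of -0.18 against -0.00 for all genes. The 3 acid libraries lay below all 3 controls in 14 genes and above them in 3 (16.3% and 16.7% of all tested genes).

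MRPS11, a protein of the platform of the small subunit, fell most: it had 21.9, 21.1 and 18.1 CPM at pH 7.4 and 15.7, 10.7 and 13.9 CPM at pH 6.0 at 3 h, a log2 fold change of -0.60 ± 0.16 (SE; edgeR adjusted p = 0.0139). MRPL20, counterpart of bacterial L20, had 35.3, 31.4 and 28.6 CPM at pH 7.4 and 27.7, 19.2 and 20.3 CPM at pH 6.0, a log2 fold change of -0.50 ± 0.13 (SE; edgeR adjusted p = 0.0101). In both genes the acid libraries lay below all controls. MRPL4, which lines the exit tunnel, fell by 0.45 ± 0.13 (SE; edgeR adjusted p = 0.0197), and its groups overlapped. The mitochondria-specific MRPL51 and MRPL43 fell by 0.40 ± 0.13 (SE; edgeR adjusted p = 0.0432) and 0.37 ± 0.11 (SE; edgeR adjusted p = 0.0184), and MRPS18B, one of the S18 paralogs, by 0.28 ± 0.09 (SE; edgeR adjusted p = 0.0374).

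MRPL19, counterpart of bacterial L19, was the exception at 3 h. It had 34.8, 33.6 and 34.6 CPM at pH 7.4 and 39.6, 45.9 and 43.1 CPM at pH 6.0 and rose by 0.32 ± 0.09 (SE; edgeR adjusted p = 0.0161), and it rose at 6 h as well, by 0.27 ± 0.09 (SE; edgeR adjusted p = 0.0159). Its acid libraries lay above all controls at both times. Of the genes of highest level, MRPS35 (0.04 ± 0.10, edgeR adjusted p = 0.789), MRPL3 (0.03 ± 0.08, edgeR adjusted p = 0.807), MRPL37 (-0.11 ± 0.11, edgeR adjusted p = 0.481), MRPL23 (-0.23 ± 0.15, edgeR adjusted p = 0.327) and MRPS34 (-0.35 ± 0.15, edgeR adjusted p = 0.125) did not pass at 3 h. Nor did MRPS12 (-0.09 ± 0.22, edgeR adjusted p = 0.816), MRPS7 (-0.11 ± 0.12, edgeR adjusted p = 0.542), MRPS30 (0.13 ± 0.09, edgeR adjusted p = 0.31) or the low genes MRPL12 (-0.43 ± 0.28, edgeR adjusted p = 0.301), MRPL38 (-0.38 ± 0.45, edgeR adjusted p = 0.588) and MRPL46 (0.62 ± 0.24, edgeR adjusted p = 0.0778).

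The counts at 3 h rested on single libraries. Without replicate 1 of pH 6.0 for 3 h 24 genes changed, 23 of them downward, and without its replicate 3 2 did. Without its replicate 2, 0 passed edgeR's test and 11 had an unadjusted p under 0.05, and DESeq2 was not run on those 11 libraries. Without replicate 1 of pH 7.4 for 3 h 1 changed. Correction for length gave 1 higher and 11 lower, as did correction for length and GC content. In the shortest 4 deciles of length 6 of 60 genes (10%) fell, with a median of -0.20, against 12.9% of protein-coding genes of those lengths and a median of -0.14.

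Time in saline at pH 7.4 asks what happened between 3 h and 6 h without acid. Here the family went down: 36 of the 74 genes fell and none rose by edgeR's test, while 14.4% of all tested genes fell and 17.2% rose (31.6% in all). At an unadjusted p under 0.05, 1 gene was higher, and DESeq2 called 0 higher. The median log2 fold change was -0.32 against -0.02 for all genes, 68 of 74 values were negative, and in 42 genes all 6 h libraries lay below all 3 h libraries (20.7% of all tested genes), the reverse holding in 1 (22.7%). MRPL and MRPS genes shared in it, with 24 of 47 and 12 of 27 lower.

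MRPL17, counterpart of bacterial L17, fell most, with 65.98, 52.2 and 58.9 CPM at 3 h and 35.1, 38.2 and 31.1 CPM at 6 h. The log2 fold change was -0.76 ± 0.12 (SE; edgeR adjusted p = 0.000102), and the highest 6 h library was well below the lowest 3 h library. MRPS17, counterpart of bacterial S17, had 5.34, 5.03 and 5.04 CPM at 3 h and 2.79, 3.06 and 3.52 CPM at 6 h, a log2 fold change of -0.72 ± 0.19 (SE; edgeR adjusted p = 0.00553), but it overlaps NIPSNAP2 on the same strand and its count is uncertain. MRPL55, first in the acid comparison, had 9.55, 7.57 and 8.56 CPM at 3 h and 6.16, 5.90 and 3.89 CPM at 6 h here and fell by 0.69 ± 0.20 (SE; edgeR adjusted p = 0.0113). The same pH 7.4 libraries at 6 h serve in both comparisons.

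MRPL34 and MRPL41 fell by 0.67 ± 0.20 (SE; edgeR adjusted p = 0.0167) and 0.65 ± 0.21 (SE; edgeR adjusted p = 0.0373). The first is the counterpart of bacterial L34 and the second a mitochondria-specific protein of the large subunit. MRPL51 had 53.96, 51.1 and 43.8 CPM at 3 h and 33.04, 38.3 and 24.1 CPM at 6 h, a log2 fold change of -0.64 ± 0.14 (SE; edgeR adjusted p = 0.00146). Of the abundant genes, MRPL23 (-0.55 ± 0.16, edgeR adjusted p = 0.0149) and MRPS34 (-0.56 ± 0.15, edgeR adjusted p = 0.0126) fell, whereas MRPS35 (-0.09 ± 0.10, edgeR adjusted p = 0.514), MRPL3 (-0.05 ± 0.08, edgeR adjusted p = 0.708) and MRPL37 (-0.12 ± 0.11, edgeR adjusted p = 0.399) did not pass. MRPS7 fell by 0.47 ± 0.12 (SE; edgeR adjusted p = 0.00558). MRPS12 (-0.41 ± 0.22, edgeR adjusted p = 0.195), MRPS30 (-0.10 ± 0.09, edgeR adjusted p = 0.401), MRPL12 (-0.60 ± 0.28, edgeR adjusted p = 0.113), MRPL38 (-0.19 ± 0.43, edgeR adjusted p = 0.767) and MRPL46 (-0.16 ± 0.25, edgeR adjusted p = 0.678) did not pass.

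With length corrected, 24 genes fell and 1 rose, the median being -0.24 against -0.01 for all genes, and 23 of the 36 kept their call. In the shortest 4 deciles of length 31 of 60 genes (51.7%) fell, with a median of -0.37, against 29.05% of protein-coding genes and a median of -0.23. From the shortest decile on, 3 of 8, 14 of 26, 7 of 14 and 7 of 12 genes fell. Of protein-coding genes in the same deciles 35.3%, 34.3%, 28.5% and 23.8% fell. Without replicate 1 of pH 7.4 for 3 h 15 genes fell and without replicate 3 of pH 7.4 for 6 h 19 fell, and 14 of the 36 passed with any library left out.

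**Figure D5:**
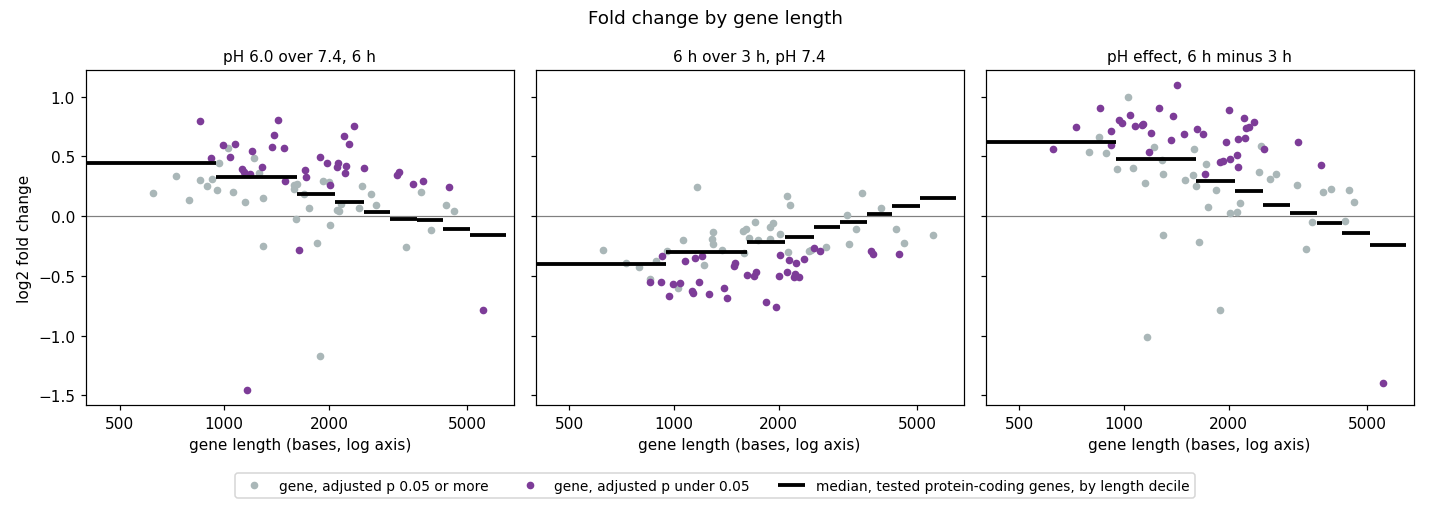
Log2 fold change of each tested gene against gene length in bases (log axis) for pH at 6 h, time at pH 7.4 and the difference between the pH effects, with black bars for the median of tested protein-coding genes in each decile of length (the longest decile is not drawn). Short genes as a whole moved up in the left and right panels and down in the middle one, and most mitochondrial ribosomal genes lie on the same side of 0 as the bars for short genes.

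In acid saline the family's changes over time were fewer in number and mainly upward. From 3 h to 6 h at pH 6.0, 10 genes rose and 3 fell, while 8.64% of all tested genes rose and 10.9% fell (19.5% in all). The median was 0.17 against -0.02 for all genes, with 56 of 74 values positive, and the 6 h libraries lay above all 3 h libraries in 17 genes and below them in 5 (16% and 19.6% of all tested genes). The split of calls depended on scaling: with total counts alone, which moves the median of all genes to -0.10, 3 rose and 5 fell, although the median of the 74 genes stayed positive at 0.09.

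MRPL13 rose most, from the 3 h to the 6 h acid libraries, with 36.9, 29.99 and 33.3 CPM at 3 h and 47.3, 43.6 and 44.2 CPM at 6 h. The log2 fold change was 0.43 ± 0.11 (SE; edgeR adjusted p = 0.00838). MRPL48, of the central protuberance, rose by 0.40 ± 0.12 (SE; edgeR adjusted p = 0.0245), MRPL22, at the tunnel exit, by 0.39 ± 0.12 (SE; edgeR adjusted p = 0.0251), and MRPL18, counterpart of the bacterial 5S rRNA binder L18, by 0.38 ± 0.10 (SE; edgeR adjusted p = 0.0064). MRPS35, the most abundant member, had 181, 178 and 176 CPM at 3 h and 249, 214 and 227 CPM at 6 h, and it rose by 0.37 ± 0.10 (SE; edgeR adjusted p = 0.0089) with no overlap. MRPL39, a mitochondria-specific large subunit protein, rose by 0.36 ± 0.11 (SE; edgeR adjusted p = 0.018), and MRPL3 by 0.31 ± 0.08 (SE; edgeR adjusted p = 0.00982).

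MRPL46 went the other way, with 3.92, 5.47 and 4.13 CPM at 3 h and 1.15, 1.62 and 1.77 CPM at 6 h and a log2 fold change of -1.56 ± 0.27 (SE; edgeR adjusted p = 0.00024). This was the largest change over time of any tested member at pH 6.0, and the libraries did not overlap. MRPL46 and MRPS11 are neighbours on chromosome 15, with 320 bases between the genes, and are the only pair of members within 10000 bases of each other. MRPS11 gave 0.38 ± 0.16 (SE; edgeR adjusted p = 0.11) over the same interval and did not pass. MRPS2 and the mitochondria-specific MRPL50 fell by 0.40 ± 0.11 (SE; edgeR adjusted p = 0.012) and 0.39 ± 0.13 (SE; edgeR adjusted p = 0.043). Among the others given whatever their result, MRPL23 (0.16 ± 0.16, edgeR adjusted p = 0.507), MRPS34 (0.28 ± 0.15, edgeR adjusted p = 0.223), MRPL37 (0.22 ± 0.11, edgeR adjusted p = 0.149), MRPS12 (0.17 ± 0.22, edgeR adjusted p = 0.638), MRPS30 (-0.15 ± 0.09, edgeR adjusted p = 0.273) and MRPS7 (-0.03 ± 0.12, edgeR adjusted p = 0.898) did not pass. MRPL38 (-0.98 ± 0.53, edgeR adjusted p = 0.204) and MRPL12 (0.40 ± 0.29, edgeR adjusted p = 0.356) did not pass either.

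Single libraries moved this count as well. Without replicate 1 of pH 6.0 for 3 h 30 genes changed, and without its replicate 2 or 3 5 and 8 did. Without replicate 1 or 2 of pH 6.0 for 6 h 7 and 8 changed. Correction for length gave 13 higher and 2 lower, and all 10 risen genes kept their call under it. In the shortest 4 deciles of length 7 of 60 genes (11.7%) rose, below the 13.8% of protein-coding genes of those lengths, with medians of 0.20 and 0.12.

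The test of the difference itself asked whether the pH effect at 6 h departed from that at 3 h. It did so upward in 37 of the 74 genes and downward in 1, while 13.1% of all tested genes differed upward and 16.3% downward (29.3% in all). The median difference of log2 fold changes was 0.52 against -0.03 for all genes, and 66 of 74 values were positive. Among MRPL genes 28 of 47 differed upward and 1 downward, and among MRPS genes 9 of 27 upward. MRPL55 had the largest upward difference, 1.10 ± 0.28 (SE; edgeR adjusted p = 0.00558), its pH effect going from -0.30 at 3 h to 0.80 at 6 h. MRPS33 (0.91 ± 0.18, edgeR adjusted p = 0.000745), MRPL41 (0.90 ± 0.30, edgeR adjusted p = 0.0441), MRPS11 (0.88 ± 0.23, edgeR adjusted p = 0.007), MRPS34 (0.84 ± 0.22, edgeR adjusted p = 0.0102) and MRPL40 (0.84 ± 0.21, edgeR adjusted p = 0.00524) came next among those that passed.

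In MRPS11 the pH effect was -0.60 at 3 h and 0.29 at 6 h. In its neighbour MRPL46 it was 0.62 and -0.78, a difference of -1.40 ± 0.37 (SE; edgeR adjusted p = 0.00743), the largest in size of those that passed. The pH effect in MRPL46 did not pass at 3 h and lost its call at 6 h with length corrected, and its low counts are uncertain. The abundant MRPL23 (0.71 ± 0.22, edgeR adjusted p = 0.0253), MRPS35 (0.45 ± 0.13, edgeR adjusted p = 0.0144) and MRPL3 (0.35 ± 0.11, edgeR adjusted p = 0.024) differed upward, and MRPL37 (0.34 ± 0.15, edgeR adjusted p = 0.0869) did not pass. MRPS7 (0.44 ± 0.17, edgeR adjusted p = 0.0589), MRPS12 (0.58 ± 0.32, edgeR adjusted p = 0.199), MRPS30 (-0.04 ± 0.13, edgeR adjusted p = 0.844), MRPL12 (1.00 ± 0.41, edgeR adjusted p = 0.0671) and MRPL38 (-0.78 ± 0.68, edgeR adjusted p = 0.424) did not pass either. With length corrected 27 differed upward and 1 downward, and with length and GC corrected 32 and 3. In the shortest 4 deciles of length 34 of 60 genes (56.7%) differed upward, with a median of 0.57. Of protein-coding genes in those deciles 31.7% did, with a median of 0.32. From the shortest decile on, 5 of 8, 13 of 26, 8 of 14 and 8 of 12 genes differed upward. Of protein-coding genes in the same deciles 39.1%, 40.1%, 30.3% and 24.4% did. Of the 37 genes, 24 passed with any single library left out.

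The exons of 35 of the genes overlap no other gene, and all 35 were tested. At 6 h of acid 20 rose and none fell (median 0.36; for these 35, edgeR's unadjusted p was under 0.05 and the value negative in 0 and DESeq2 called 0 lower). Over time at pH 7.4 18 fell, and 22 differed upward in the test of the difference. These 3 shares were 57.1%, 51.4% and 62.9%, against 21.9%, 14.4% and 13.1% of all tested genes. The 35 genes were shorter than the family as a whole, with a median of 1423 bases against 1712. They were not set beside other genes of their length. Over the 74 genes the rank correlation of length with log2 fold change was -0.28 for pH at 6 h, 0.42 for time at pH 7.4 and -0.44 for the difference. The genes share libraries, and length and GC content were themselves related across them (-0.40), so these values are descriptions.

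Partner genes of the mitoribosome were counted in the same edgeR test for 6 h of acid, in which 21.9% of all tested genes rose and 25.1% fell (values are log2 fold changes ± SE). Of 5 mitoribosome subunits without an MRP symbol 4 rose (median 0.43): DAP3 (0.32 ± 0.09), the GTP-binding small subunit protein, PTCD3 (0.23 ± 0.07), CHCHD1 (0.55 ± 0.19) and GADD45GIP1 (0.43 ± 0.16), while AURKAIP1 gave 0.45 ± 0.19 and did not pass. Of 15 translation factors 4 rose and 4 fell (26.7% each), near the shares over all genes. The elongation factor TUFM (0.41 ± 0.10) and the ribosome recycling factor MRRF (0.40 ± 0.09) rose, and the release factor relative MTRFR (-1.07 ± 0.13) and the deformylase PDF (-0.78 ± 0.16) fell. Of 20 mitochondrial aminoacyl-tRNA synthetases and glutamyl-tRNA amidotransferase subunits 7 rose (35%) and 4 fell (20%), PARS2 (-1.58 ± 0.17) and MARS2 (-1.23 ± 0.12) among them.

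Of 24 assembly factors 5 rose (20.8%) and 6 fell (25%), again near the shares over all genes, the RNA helicases DHX30 (0.43 ± 0.09) and DDX28 (-2.33 ± 0.20) being opposite. Among 12 tested genes of mitochondrial transcription and RNA processing 3 rose (25%) and 4 fell (33.3%), with TRMT10C (-1.17 ± 0.14) and the transcription factor TFB2M (-0.86 ± 0.14) among the latter. Of the 13 mRNAs that the mitoribosome translates 4 fell (30.8%), such as MT-ND2 (-0.40 ± 0.12), with a median of -0.18. Cytosolic ribosomal protein genes moved in the same directions. Of 78 tested, 64 rose at 6 h of acid (82.1%, median 0.50) and 60 fell over time at pH 7.4 (76.9%, median -0.43). In the test of the difference 64 differed upward (82.1%, median 0.72). The shares of all tested genes were 21.9%, 14.4% and 13.1%. The part of the length trend in this was not tested.

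Transcripts of regulators of genes for mitochondrial proteins fell or did not pass at 6 h of acid. Of 9, 6 fell (66.7%, against 25.1% of all tested genes, median -0.39). MYC fell by 3.03 ± 0.10 on the log2 scale (adjusted p = 9.7e-16), the coactivator PPRC1 by 0.81 ± 0.10, PPARGC1A by 0.50 ± 0.15, NRF1 by 0.42 ± 0.10, GABPB1 by 0.39 ± 0.09 and YY1 by 0.23 ± 0.07. GABPA (-0.16 ± 0.12), ESRRA (-0.01 ± 0.08) and PPARGC1B (-0.01 ± 0.12) did not pass. At 3 h MYC had already fallen, by 1.68 ± 0.10, ESRRA had fallen by 0.27 ± 0.08 and PPARGC1B had risen by 0.44 ± 0.11. Over time at pH 7.4 YY1 (0.33 ± 0.07), PPRC1 (0.40 ± 0.10) and GABPA (0.37 ± 0.12) rose while the ribosomal genes fell. These were 3 of the 9 regulators (33.3%), against 17.2% of all tested genes. All tested genes in the longest decile of length had a median of 0.35 over time at pH 7.4 and -0.32 at 6 h of acid. Regulators were not set beside genes of their own length, and the part of the length trend in their values was not tested. An mRNA level says nothing of the amount or activity of these proteins.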

How the data were processed

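RNA of 12 T84 libraries was sequenced. The deposited table gives raw counts and RPKM values per gene. CASAVA, STAR and hg19 are named per the submitters' processing notes; for versions, annotation, counting program and strand use the entry is: not given in the sources used here. Symbols were found for 45342 of 48162 identifiers. Gene length was recovered from the authors' counts and RPKM, and the deposited RPKM was reproduced from it for 100.0% of values within a relative 1e-06. Counts were tested with edgeR 4.0.16 (R 4.3.3, limma 3.58.1; TMM scaling, filterByExpr, robust quasi-likelihood, 4 groups in 1 fit, 8 residual degrees of freedom) with Benjamini-Hochberg adjustment over 15630 genes. CPM uses TMM-scaled totals, and SE is the log2 fold change divided by the root of F. Corrections for length or GC content used splines of 5 degrees of freedom per library as offsets, fitted over all tested genes, non-coding ones included. DESeq2 1.42.0, other scalings and filters, a replicate block and leaving out each library were alternatives. The test was also run on simulated counts with a single spread for all genes, without a length trend or with the same trend in every library of a single group. Length trends that differ between libraries of a group, as in these data, were not simulated.

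Named genes are, per comparison, up to 6 higher and 6 lower genes by size among those that passed, called genes against the majority (up to 5), and whatever their result the 5 highest and 3 lowest by RPKM, MRPL12, MRPS12, MRPL37, MRPS30, MRPS7 and genes failing the filter. Partner lists give up to 3 genes by adjusted p, and all regulators. The members and lists were chosen with earlier results of these data known. The splits by length class, overlap and bacterial counterpart were chosen after seeing the data, as were the remaining genes named. The counterpart split follows symbol numbers, with MRPL47, MRPS24 and MRPS28 put in the counterpart class and MRPS36 in neither.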

Additional observations from a re-analysis of the deposited data

Results flagged for a closer look

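The pH effect at 6 h differed from that at 3 h, by edgeR's test of the difference, in 38 of the 74 tested genes. On the log2 scale the difference was 1.10 for MRPL55, 0.91 for MRPS33, 0.90 for MRPL41, 0.88 for MRPS11, 0.84 for MRPS34, 0.84 for MRPL40, 0.71 for MRPL23, 0.45 for MRPS35 and 0.35 for MRPL3. It was -1.40 for MRPL46.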

How the results depend on the processing

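Counts of changed genes stayed within 1.5 times under every other setting that keeps all libraries, except for pH at 3 h (7 genes) and time at pH 6.0 (13 genes). At 3 h, 12 genes changed with length corrected, 12 with length and GC content, 16 without a filter (0 higher) and 4 with only the groups compared. For time at pH 6.0, 8 changed with total counts alone. With 1 library left out in turn, counts ran from 0 to 24 for pH at 3 h, 19 to 42 for pH at 6 h, 15 to 42 for time at pH 7.4, 5 to 30 for time at pH 6.0 and 27 to 49 for the difference. The shares of all tested genes called under these settings are not given, and the cause was not tested.

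Among the values of named genes, signs turned only in those that did not pass. Signs of the other genes were not followed singly. Over the 74 genes, 64 values were positive for pH at 6 h, and 57 with length corrected. For time at pH 7.4 these numbers were 6 and 12, for pH at 3 h 10 and 13, and for the difference 66 and 63. For time at pH 6.0 both were 56. The turns among named genes were as follows. With length corrected, time at pH 7.4 gave 0.0605 for MRPS35, 0.105 for MRPL3 and 0.0236 for MRPL37, and the difference 0.10 for MRPS30. With length and GC content corrected these were 0.0598 for MRPL3, 0.0429 for MRPL37, 0.0276 for MRPL38 and 0.16 for MRPS30. MRPL3 at 3 h gave -0.0002 without a filter. Leaving out a library gave -0.0507 to 0.14 for MRPS35, -0.0296 to 0.0943 for MRPL3 and -0.30 to 0.10 for MRPS12 at 3 h. For time at pH 7.4 it gave -0.19 to 0.0077 for MRPS35, -0.11 to 0.0189 for MRPL3 and -0.32 to 0.12 for MRPL46. For time at pH 6.0 it gave -0.0005 to 0.42 for MRPL23, -0.0227 to 0.40 for MRPS12 and -0.0844 to 0.12 for MRPS7, and for the difference -0.0596 to 0.0652 for MRPS30.

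In the labels, same-numbered libraries shared only a number. Of 18 such pairs 2 had deviations correlated over 0.1 (-0.127 to 0.226), and of 36 pairs with different numbers 4 did (-0.190 to 0.156). With 3 libraries per group these values cannot tell whether same-numbered libraries were handled together. A replicate block gave 10, 38, 37, 16 and 40 changed genes for pH at 3 h, pH at 6 h, time at pH 7.4, time at pH 6.0 and the difference. MRPL30 and MRPS24, with at most 2 and 8 counts in a library, were too low to test.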
